A study of Homo sapiens with 12 samples.

Results

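UTX (KDM6A) and JMJD3 (KDM6B) double knockout (dKO) cells taken through 28 days of differentiation were compared with the wild-type (WT) neural progenitor cells (NPCs) from which a normal differentiation starts. The comparison asks how far differentiated dKO cells still resembled WT progenitors. The 2 samples labelled dKO-D28 were set against the 2 labelled WT NPCs without a P4 mark, 4 of the 12 RNA-seq samples, and all 13454 genes with a mean raw count of at least 20 over the 12 samples were described, of 58302 genes in the files. The other 8 samples (2 each of dKO NPCs, WT-D28, WT NPC P4 and dKO NPC P4) were used where they show whether a difference was also seen there.

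All samples came from H1, a human embryonic stem cell line. WT NPCs were rosette-derived progenitors grown with FGF2 and EGF, and the study's methods place them at passage 2. The dKO-D28 cells came from dKO NPCs that were moved to N2B27 medium with GDNF, BDNF and cAMP and without FGF2 and EGF. In the dKO line the catalytic region of both genes had been deleted by targeting followed by puromycin selection, so that genotype, time and medium all differ between the 2 groups and cannot be told apart in this contrast. Nothing in the labels says whether the 2 samples of a group were separate cultures. The p-values therefore measure the spread between these samples, which may be technical. The level of each gene is given as CPM, reads of the gene scaled to the library total.

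Tri-methylation of lysine 27 on histone H3 is laid down by polycomb repressive complex 2 and is found on many silent lineage genes. UTX and JMJD3 remove it through their JmjC domains. Neural progenitors divide, keep SOX2, PAX6 and nestin, and on withdrawal of FGF2 and EGF leave the cell cycle and switch on neuronal and glial genes, among them those for the neuronal form of the BAF chromatin remodelling complex.

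KDM6A stood at 61.4 and 54.4 CPM in WT NPCs and at 59.4 and 32.4 CPM in dKO-D28 cells, and KDM6B at 157 and 184 against 146 and 152 CPM. Neither passed the test. Counts were summed over whole genes, so that reads outside the deleted exons are counted and these levels do not check the knockout. Of the defining progenitor genes, SOX1, SOX2, PAX6, NES and FABP7 were expressed in both WT NPC samples, while HES5 had at most 6 reads in any library. The pluripotency factors POU5F1 and NANOG are listed at 0 in all 12 libraries. Some genes that every cell uses are listed at 0 throughout as well, so these zeros may come from the counting and say nothing about identity.

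Library depth and quality differed between the 2 groups. Total counts were 756942 and 1328252 in WT NPCs and 4082248 and 5214431 in dKO-D28 cells, so that low genes were measured less precisely in the progenitors. Genes of the mitochondrial genome took between 1.66% and 1.79% of counts in the 4 NPC libraries without a P4 mark and between 3.70% and 5.18% in the other 8. In 45 genes, 0.334% of those tested, every one of those 4 libraries lay more than 2-fold below or above every one of the other 8, and 30 of the 45 are annotated as pseudogenes. Such genes made up 2.62% of the genes called higher and 5.76% of those called lower below. The labels name no batch, and since all WT NPC libraries belong to the 4, this split cannot be told apart from the contrast. The paired samples of dKO-D28 also stood further apart than those of any other group. Of the genes at a mean of 50 CPM or more, 2.54% differed by over 2-fold between them, against 0.0389% to 0.544% in the other 5 groups, and the chi-square per degree of freedom over all tested genes was 14.1 against 1.57 to 3.31.

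Between dKO-D28 cells and WT NPCs fewer genes were called than between WT-D28 cells and WT NPCs. The median log2 fold change over all genes was 0.01, a value that the scaling of libraries holds near 0 in every comparison. For 8844 genes, 65.7% of those tested, the 95% interval of the fold change lay wholly inside 2-fold in either direction. A gene was called when the unadjusted p was below 0.05 and the fold change above 2, the study's own criteria. By this rule 649 genes (4.82%) were higher and 469 (3.49%) lower in dKO-D28 cells, of which 425 and 358 also held after Benjamini-Hochberg adjustment over all genes. In 647 of the 649 and 456 of the 469, the 4 samples did not overlap between groups, while over all tested genes 24.0% lay higher and 22.1% lower without overlap. With 2 samples a group the call rule itself favours such separation, so it adds no separate evidence for the calls. Exact permutation of 2 against 2 samples cannot go below p = 0.333, so the calls rest on the spread shared between genes and groups. WT cells moved further over the same 28 days. In WT-D28 against the same WT NPCs, 1737 genes (12.9%) were called higher and 1544 (11.5%) lower, and 6344 (47.2%) stayed inside 2-fold. The share inside 2-fold also depends on the precision of a comparison. It was 62.7% for dKO NPCs against WT NPCs, 69.7% for dKO-D28 against dKO NPCs and 58.0% for dKO-D28 against WT-D28 cells. The dKO NPCs themselves differed from WT NPCs in 349 genes called higher (2.59%) and 246 called lower (1.83%), and dKO-D28 cells differed from dKO NPCs in 539 (4.01%) and 422 (3.14%). Set against WT-D28 cells, dKO-D28 cells were higher in 1675 genes (12.4%) and lower in 1575 (11.7%). These comparisons share samples and are given side by side. Spearman's rho over the tested genes is a description across genes that are not independent. It was 0.905 to 0.94 between dKO-D28 and WT NPC libraries, 0.929 to 0.94 with dKO NPC and 0.9295 to 0.9426 with dKO NPC P4. It was 0.771 to 0.831 with WT-D28 and 0.812 to 0.852 with WT NPC P4 libraries. Outside its own group, the first dKO-D28 library was closest to a WT NPC library (0.9403) and the second to a dKO NPC P4 library (0.9426).

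To choose genes without using any sample of the contrast, those that differed between WT NPC P4 and WT-D28 cells (adjusted p below 0.05 and over 2-fold) were taken. The methods start differentiation from passage 2 NPCs, so WT NPC P4 was not its starting point. These sets are therefore not the program of normal differentiation. Of neuronal genes, MAP2 and DCX stood higher in WT NPC P4 than in WT-D28 cells, and STMN2 and SYN1 lower. In dKO-D28 against WT NPCs, the 1102 genes that had risen in WT had a median log2 fold change of 0.01 with quartiles of -0.48 and 0.48. Of them 104 (9.44%) were called higher and 114 (10.3%) lower. The 977 genes that had fallen in WT had a median of -0.02, with 128 (13.1%) called higher and 92 (9.42%) lower. Both sets thus held larger shares of calls than the background in both directions, with medians near 0. In WT-D28 against WT NPCs, a contrast that shares the WT-D28 samples with the choice, the medians were 0.96 and -1.31. There 48.3% of the genes that rose were called higher, and 57.1% of those that fell were called lower. In dKO NPCs against WT NPCs the medians were -0.09 and -0.01.

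The cell cycle genes of the dKO-D28 cells stayed at the level of dividing WT progenitors. Of the 42 tested S phase genes none was called in either direction at p below 0.05 and over 2-fold, 37 had intervals inside 2-fold and the median log2 fold change was -0.10. Of the 54 G2/M genes 1 was called lower, none was called higher and 52 stayed inside 2-fold, with a median of -0.11. Over all genes 4.82% were called higher, 3.49% were called lower and 65.7% lay inside 2-fold. The summed level of the G2/M genes was 9307 and 8731 CPM in WT NPCs, 7356 and 8588 CPM in dKO-D28 cells, and 3342 and 3388 CPM in WT-D28 cells. MKI67, which encodes the proliferation antigen Ki-67, was at 548 and 556 CPM in WT NPCs and at 414 and 567 CPM in dKO-D28 cells, and the samples overlapped (log2 fold change -0.17 ± 0.14, SE, edgeR adjusted p = 0.505). TOP2A, the DNA topoisomerase of dividing cells, was at 685 and 622 against 525 and 575 CPM, below WT NPCs in both dKO-D28 samples but not called (-0.25 ± 0.11, adjusted p = 0.179). CCNB1, the mitotic cyclin B1, was at 120 and 119 against 96.0 and 145 CPM. In the S phase list MCM7, a subunit of the replicative helicase, was at 403 and 419 against 312 and 404 CPM, and NASP, a histone chaperone, at 471 and 487 against 458 and 570 CPM. The exception was CENPE, a kinetochore motor, at 182 and 180 CPM in WT NPCs and 75.1 and 58.1 CPM in dKO-D28 cells (-1.45 ± 0.17, adjusted p = 4.06e-05). In WT-D28 cells 34 of the S phase and 46 of the G2/M genes were called lower, and the difference between the 2 day 28 groups was itself called for 31 and 46 of them, all higher in dKO-D28. The shares over all genes were 11.5% lower in WT-D28 cells and 12.4% higher in dKO-D28 than in WT-D28 cells. None of the 14 tested genes of cell cycle exit was called in dKO-D28 cells at p below 0.05 and over 2-fold. In bulk samples fewer cells of a type and less RNA per cell cannot be told apart.

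Progenitor identity genes were partly kept. Of 28 tested, 16 lay inside 2-fold, 2 were called higher and 5 lower, where the shares over all genes were 65.7%, 4.82% and 3.49%, so that calls were more frequent and members inside 2-fold less frequent than over all genes. The median was -0.12, or -0.40 without the second dKO-D28 sample, and the summed level was 12530 and 12410 CPM in WT NPCs, 9154 and 8918 CPM in dKO-D28 cells and 7910 and 7888 CPM in WT-D28 cells. SOX2, the transcription factor that maintains neural progenitors, was at 465 and 422 CPM in WT NPCs and 358 and 290 CPM in dKO-D28 cells. Both dKO-D28 samples lay below both WT NPC samples, and the log2 fold change of -0.45 ± 0.11 (adjusted p = 0.0163) stayed short of 2-fold. SOX1, a close relative of SOX2, was at 185 and 172 against 117 and 114 CPM. PAX6, which marks dorsal forebrain progenitors, was at 304 and 262 CPM in WT NPCs, 190 and 356 CPM in dKO-D28 cells and 11.9 and 11.7 CPM in WT-D28 cells, so that the first 2 groups overlapped and the third lay far below. HES1, a Notch effector, was at 182 and 180 against 185 and 167 CPM (-0.04 ± 0.11).

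NES, the gene of the progenitor intermediate filament nestin, fell from 1399 and 1431 CPM to 620 and 618 CPM (-1.19 ± 0.09, adjusted p = 1.33e-06). It was between 1399 and 1783 CPM in the 4 NPC libraries without a P4 mark and between 618 and 942 CPM in the other 8, and after correcting counts for GC content and length its log2 fold change was -0.36 and it was no longer called. POU3F2, a POU factor of neural progenitors and upper layer neurons, fell from 117 and 84.2 CPM to 19.4 and 7.91 CPM (-2.89 ± 0.32, adjusted p = 0.000167). SOX3, the third SOXB1 factor, fell from 367 and 277 CPM to 78.5 and 96.9 CPM. POU3F2 and SOX3 were already called lower in dKO NPCs, at 35.3 and 28.3 CPM and at 142 and 82.7 CPM. Between dKO NPCs and dKO-D28 cells POU3F2 was called lower again and SOX3 was not called. ZIC1 and ZIC2, zinc finger factors of the dorsal neural tube, moved the other way. ZIC1 rose from 65.3 and 154 CPM to 479 and 429 CPM and ZIC2 from 77 and 82 CPM to 223 and 263 CPM (1.61 ± 0.14, adjusted p = 2.58e-06). ZIC1 was at 304 and 395 CPM in dKO NPCs already, and at 438 and 442 CPM in WT-D28 cells.

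Neuronal genes that WT cells switched on were not called higher in dKO-D28 cells, and some fell below the progenitor level. Of 22 tested cytoskeletal and RNA-binding genes of neurons, none was called higher and 5 lower (median -0.67), where WT-D28 cells had 15 called higher and none lower (median 1.31). Of 28 synapse and vesicle genes none was higher and 5 lower, and of 23 ion channels and receptors none was higher and 6 lower, against 17 and 13 called higher in WT-D28 cells. Over all genes 4.82% were called higher and 3.49% lower in dKO-D28 cells, and 12.9% and 11.5% in WT-D28 cells. In lists of this size, no gene called higher is close to the 4.82% share. MAP2, the dendritic microtubule protein, was at 416 and 405 CPM in WT NPCs, 522 and 320 CPM in dKO-D28 cells and 1141 and 1112 CPM in WT-D28 cells (0.04 ± 0.18 for dKO-D28, adjusted p = 0.941). STMN2, a tubulin-binding protein of growing axons, was at 295 and 248 against 216 and 105 CPM (adjusted p = 0.141). DCX, doublecortin of migrating neurons, fell from 384 and 311 CPM to 151 and 78.9 CPM (-1.59 ± 0.27, adjusted p = 0.00607). L1CAM, an axonal adhesion molecule, fell from 175 and 180 CPM to 97.0 and 52.3 CPM. TUBB3, neuronal beta tubulin, passed the unadjusted criteria at 56.1 and 42.5 against 27.6 and 10.2 CPM but not the adjusted p (0.0519). RBFOX3 (NeuN) did not reach the count minimum, with 0 and 6 reads in WT NPCs and 16 and 14 in dKO-D28 cells. Among the synaptic genes SLC32A1, the vesicular GABA transporter, fell from 19.6 and 13.4 CPM to 1.70 and 0.193 CPM (-4.14 ± 0.54, adjusted p = 0.000118). SLC32A1 was already called lower in dKO NPCs, at 4.50 and 1.41 CPM, and was at 0.468 and 0.736 CPM in dKO NPCs at passage 4.

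How far neuronal genes fell depended on the dKO-D28 sample. The median log2 fold change of the 22 cytoskeletal genes was -1.36 without the first sample and -0.35 without the second. Summed levels of this list were 4066 and 2548 CPM in the 2 dKO-D28 samples. They were 5025 and 4793 CPM in WT NPCs and 13740 and 13620 CPM in WT-D28 cells. For the 28 synaptic genes the sums were 963 and 683 CPM in dKO-D28 cells, against 1090 and 1061 CPM in WT NPCs.

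Subunits of the BAF complex were seen here as mRNA only, which does not show which form of the complex the cells held. ACTL6A, the progenitor subunit BAF53A, was at 66.6 and 64.1 CPM in WT NPCs, 76.6 and 81.8 CPM in dKO-D28 cells and 48.7 and 52.8 CPM in WT-D28 cells. In dKO-D28 cells ACTL6A was called against neither WT NPCs nor WT-D28 cells. Both dKO-D28 samples lay above both WT-D28 samples. That log2 fold change of 0.64 ± 0.12 (edgeR adjusted p = 0.000248) stayed short of 2-fold. ACTL6B, the neuronal subunit BAF53B, was at 9.14 and 8.95 against 5.33 and 1.35 CPM, while WT-D28 cells had 66.4 and 66.0 CPM. ACTL6B met the unadjusted criteria (-1.51 ± 0.53) but not the adjusted threshold (edgeR adjusted p = 0.0882). DPF1, the neuronal subunit BAF45B, fell from 36.6 and 18.6 CPM to 11.6 and 9.26 CPM (-1.31 ± 0.33, adjusted p = 0.018). The other 15 of 17 BAF genes tested lay inside 2-fold, among them SMARCA4, the ATPase BRG1, at 510 and 600 against 614 and 670 CPM. Over all genes 65.7% lay inside 2-fold. In its western blots the paper found less BRG1 protein in dKO-D28 cells, at similar mRNA levels. Of the 12 tested genes for polycomb repressive complex 2 and the H3K27 demethylases, none was called at p below 0.05 and over 2-fold. Over all genes 4.82% were called higher and 3.49% lower, so no call among 12 is close to those shares. Of the 12, 11 lay inside 2-fold, with EZH2, the methyltransferase, at 146 and 147 against 128 and 154 CPM.

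Glial genes moved in both directions. Of 22 tested genes of astrocytes and outer radial glia 4 were called higher and 6 lower (median -0.49), against 4.82% and 3.49% over all genes. In WT-D28 cells 14 were higher and 2 lower, against 12.9% and 11.5%. SLC1A3, the glial glutamate transporter GLAST, fell from 106 and 82.7 CPM to 17.2 and 14.7 CPM (-2.54 ± 0.21, adjusted p = 2.24e-06) and stood at 265 and 267 CPM in WT-D28 cells. In dKO NPCs SLC1A3 was already called lower, at 34.5 and 17.7 CPM, and it was not called between dKO-D28 cells and dKO NPCs. CD44 and FGFR3, a hyaluronan receptor and an FGF receptor of glial progenitors, fell by 2.62 and 2.01 on the log2 scale. PTPRZ1, a receptor phosphatase of radial glia, was one of the largest losses in CPM, from 1689 and 1320 to 734 and 334. APOE, the apolipoprotein of astrocytes, rose from 13.1 and 26.8 CPM to 61.3 and 116 CPM (2.06 ± 0.38, adjusted p = 0.00684). APOE was already called higher in dKO NPCs, at 62.31 and 64.35 CPM, and was not called between dKO-D28 cells and dKO NPCs. GFAP, the astrocyte filament, was at 2.61 and 2.98 against 5.09 and 6.95 CPM and was not called (adjusted p = 0.242), with 14.9 and 18.2 CPM in WT-D28 cells.

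The dKO-D28 cells also expressed genes that WT NPCs had at or near 0, first among them a set of epithelial genes. Of 11 tested genes of epithelium and non-neural ectoderm, 10 were called higher and none lower, all 10 also by adjusted p. The median log2 fold change was 4.02. Over all genes 4.82% were called higher. Members with no more than 2 reads in WT NPCs could meet the count minimum only through other groups, dKO-D28 among them. A call of higher was thus favoured by entry, and 10 in 11 cannot be read against 4.82%. The summed level was 110 and 265 CPM in WT NPCs, 1106 and 2128 CPM in dKO-D28 cells and 29.3 and 32.3 CPM in WT-D28 cells. In dKO NPCs it was 510 and 593 CPM, and in dKO NPCs at passage 4 it was 682 and 646 CPM. Of the 11 genes, 3 were called higher in dKO NPCs than in WT NPCs, against 2.59% over all genes. EPCAM, an epithelial adhesion molecule, had no read in WT NPCs and stood at 37.6 and 51.0 CPM in dKO-D28 cells, at least 31.6-fold higher when a group without reads is set at 3 counts over both libraries (1.4 CPM in WT NPCs). GRHL2, a grainyhead factor of epithelia, and ESRP1, an epithelial splicing regulator, were likewise without reads in WT NPCs and rose at least 24.1-fold and 23.0-fold. CDH1, E-cadherin, had 2 reads in WT NPCs and rose to 72.7 and 213 CPM, a ratio of 159 with an exact 95% counting interval of 44 to 1320. The keratins KRT8, KRT18 and KRT19 were present in WT NPCs at low levels. KRT18 was at 22.2 and 42.5 CPM there and at 176 and 302 CPM in dKO-D28 cells (2.80 ± 0.36, adjusted p = 0.00144), and KRT19 at 10.4 and 13.4 against 120 and 278 CPM (4.02 ± 0.53, adjusted p = 0.00224). Reads of KRT8 and KRT18 can be shared with their pseudogenes. CLDN4, a tight junction claudin, rose from 3.92 and 9.69 CPM to 135 and 292 CPM. CLDN6, the only member not called, was at 14.4 and 44 against 45.6 and 125 CPM. The other 5 of the 16 listed genes did not reach the count minimum. Of these TP63, a factor of stratified epithelium, had no read in WT NPCs and 23 and 93 reads in dKO-D28 cells.

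Several of the largest rises outside this list were also genes known from epithelia. MUC16, a membrane mucin, had no read in WT NPCs, dKO NPCs, WT-D28 cells or WT NPCs at passage 4, and stood at 119 and 215 CPM in dKO-D28 cells, at least 119-fold higher. By DESeq2 MUC16 was not called. GABRP, the pi subunit of the GABA-A receptor, rose at least 39.3-fold to 33.0 and 77 CPM. MUC16 and GABRP had reads almost only in dKO-D28 cells, which alone carried them past the count minimum. ST14 (matriptase) and SPINT1, its inhibitor in surface epithelium, had 1 and 2 reads in WT NPCs and 29.8 to 115 CPM in dKO-D28 cells. All 4 genes were 1.81 to 3.4 times higher in the second dKO-D28 sample than in the first, and the median member of the epithelial list was higher there by 0.77 on the log2 scale. Each dKO-D28 sample lay above both WT NPC samples in all of these. In dKO NPCs at passage 2 MUC16 and GABRP were without reads and EPCAM was at 3.75 and 2.12 CPM, and in dKO NPCs at passage 4 EPCAM was at 11.2 and 12.5 CPM.

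Several factors of the ventral forebrain fell, though no list of ventral genes was tested. NKX2-1, the factor of ventral forebrain and hypothalamus, showed the largest fall on the log2 scale among called genes of at least 50 CPM, from 67.9 and 71.6 CPM in WT NPCs to 1.94 and 0.193 CPM in dKO-D28 cells (-6.13 ± 0.36, adjusted p = 1.3e-07). It was at 88.6 and 117 CPM in dKO NPCs and at 360 and 354 CPM in WT-D28 cells. In progenitors at passage 4 NKX2-1 was at 0.468 and 0.736 CPM in dKO and at 23.4 and 22.1 CPM in WT cells. Its low level was thus not particular to differentiated dKO cells. DLX1 and DLX2, homeobox factors of GABAergic neurons, fell from 66.6 and 67.1 CPM to 10.7 and 0.965 CPM and from 62.7 and 40.3 CPM to 7.27 and 5.60 CPM (-3.63 ± 0.67 and -2.95 ± 0.34, adjusted p = 0.0151 and 9.15e-05). Both were already lower in dKO NPCs, where DLX2 stood at 16.5 and 4.24 CPM. In dKO NPCs at passage 4 DLX1 was at 3.045 and 4.169 CPM and DLX2 at 2.34 and 1.72 CPM. SHH, the ventral ligand, had 13 reads in WT NPCs and 3 in the deeper dKO-D28 libraries, and was 19.1-fold higher per read in WT NPCs (exact 95% counting interval 5.25 to 105). Among the 12 tested Hedgehog genes the co-receptors GAS1 and CDON rose by 2.35 ± 0.49 and 1.60 ± 0.22 and the effector GLI2 stayed inside 2-fold (127 and 117 against 97.5 and 109 CPM).

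Some dorsal and cortical factors rose. PAX7, a paired-box factor of the dorsal neural tube and neural crest, went from 0 and 2.98 CPM to 70.5 and 62.1 CPM (5.11 ± 0.40, adjusted p = 2.18e-06). It was at 60.2 and 59.8 CPM in dKO NPCs at passage 4 and without reads in WT-D28 cells. Of 14 tested genes of neural crest and dorsal neural tube 6 were called higher and 1 lower, with a median of 3.08, or 2.69 with the 3 genes that had no read in WT NPCs set at their bound. Over all genes 4.82% were called higher and 3.49% lower. Those 3 genes met the count minimum only through other groups. Of the 6, PAX7 and LMX1A (at least 5.56-fold higher) held by adjusted p. The other 4 differed between the dKO-D28 samples, with TFAP2B, an AP-2 factor, at 6.55 and 48.3 CPM, TFAP2A at 5.82 and 32.2 CPM, TFAP2C at 6.54 and 23.0 CPM and MSX1 at 3.39 and 10.8 CPM. The median of the 14 genes was 2.93 without the first WT NPC sample and 5.3 without the second. It was 3.69 without the first dKO-D28 sample and 1.69 without the second. SOX10 and FOXD3, defining factors of neural crest, had at most 2 reads in any of the 4 libraries. Among 23 proneural and neuronal factors 6 rose and 7 fell, against 4.82% and 3.49% over all genes. Of the 23, 2 had no read in WT NPCs, EOMES had 3 and NEUROG1 had 4. These met the count minimum only through other groups, so the share that rose cannot be read against 4.82%. EOMES and TBR1, successive factors of the cortical excitatory lineage, rose to 20.6 and 24.3 CPM and to 29.1 and 18.0 CPM from 1.31 and 1.49 and from 6.53 and 3.73 CPM, and NEUROG1 to 12.6 and 13.9 CPM. The levels of EOMES and TBR1 were far below those of WT NPCs at passage 4, with 402 and 413 CPM and 246 and 268 CPM. ISL1, a factor of ventral and motor neurons, fell from 9.14 and 8.20 CPM to 2.18 and 0.965 CPM.

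Of 20 tested forebrain patterning genes 6 were called higher and 4 lower, against 4.82% and 3.49% over all genes. NR2E1 (TLX), the orphan receptor of forebrain stem cells, fell from 202 and 157 CPM to 28.4 and 25.5 CPM (-2.73 ± 0.16, adjusted p = 1.3e-07), and it stood at 67.6 and 53 CPM in dKO NPCs. EMX1, of the dorsal telencephalon, rose from 3 reads in WT NPCs to 9.70 and 19.3 CPM, a ratio of 10.6 (3.55 to 51.9, exact 95% counting interval). EMX1 met the count minimum only through other groups. The share called higher in this list thus cannot be read plainly against 4.82%. LHX2 and OTX2, broad forebrain factors, stayed inside 2-fold at 234 and 229 against 172 and 254 CPM and at 157 and 166 against 146 and 210 CPM. POU3F4, a POU factor of the developing brain, fell from 67.9 and 48.5 CPM to 2.42 and 0.193 CPM (-5.54 ± 0.59, adjusted p = 0.000131), and was at 0.72 and 0.905 CPM in WT-D28 cells as well. POU3F4 was at 15.8 and 3.54 CPM in dKO NPCs and at 2.58 and 2.21 CPM in dKO NPCs at passage 4. No HOX gene reached the count minimum.

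Promoter sequence is shown for 2 genes that rose (CLDN4 and GABRP) and 2 that fell (DLX2 and NKX2-1), chosen after their values were seen, because members of each pair moved together and have entries in the RefSeq table. Each line gives the 250 bases before the annotated start, 5′ to 3′ on the gene's strand, from build GRCh38.p14, with capitals marking 6 motifs searched on either strand, which are CCAAT of the CCAAT box, TTTGAA of the cell cycle homology region, the GC box GGGCGG, the AP-1 motif TGACTCA, the cAMP response element TGACGTCA and the E-box CACCTG. CLDN4 lies on the plus strand at chr7:73830746-73830995, GABRP on the plus strand at chr5:170783475-170783724, DLX2 on the minus strand at chr2:172102901-172103150 and NKX2-1, the first of 2 listed starts, on the minus strand at chr14:36520233-36520482.
CLDN4: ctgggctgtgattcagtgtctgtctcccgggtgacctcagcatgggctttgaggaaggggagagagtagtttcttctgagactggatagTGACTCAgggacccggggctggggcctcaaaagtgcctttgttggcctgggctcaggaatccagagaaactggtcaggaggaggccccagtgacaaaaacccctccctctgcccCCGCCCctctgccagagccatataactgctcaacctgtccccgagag
GABRP: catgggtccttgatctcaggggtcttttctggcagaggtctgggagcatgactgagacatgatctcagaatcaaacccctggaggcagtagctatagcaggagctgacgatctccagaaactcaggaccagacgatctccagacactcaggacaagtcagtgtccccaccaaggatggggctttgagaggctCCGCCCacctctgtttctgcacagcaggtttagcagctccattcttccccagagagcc
DLX2: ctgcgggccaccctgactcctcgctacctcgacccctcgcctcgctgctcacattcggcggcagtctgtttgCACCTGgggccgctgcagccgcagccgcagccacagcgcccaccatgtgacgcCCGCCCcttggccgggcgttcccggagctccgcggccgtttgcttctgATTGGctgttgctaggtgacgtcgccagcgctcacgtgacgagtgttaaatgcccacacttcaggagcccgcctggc
NKX2-1: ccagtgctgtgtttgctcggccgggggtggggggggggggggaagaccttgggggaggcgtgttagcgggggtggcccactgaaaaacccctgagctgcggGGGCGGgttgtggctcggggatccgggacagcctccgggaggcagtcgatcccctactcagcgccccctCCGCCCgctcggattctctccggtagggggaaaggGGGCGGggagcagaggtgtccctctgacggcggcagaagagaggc
The 2 genes that fell had 25 and 18 CG dinucleotides in this window and the 2 that rose 4 and 3. Over windows of 300 bases (250 before and 50 after the start), 436 of the 649 higher and 309 of the 469 lower genes had at least 1 entry. The median ratio of observed to expected CG was 0.705 for the 672 windows of higher genes, 0.662 for the 562 of lower genes, 0.84 for genes inside 2-fold and 0.813 for all tested genes. The AP-1 motif was in 5.06% of windows of higher genes, 4.63% of lower genes, 3.3% of tested genes and 4.95% of all 35116 RefSeq windows. The E-box, added after the values were seen, was in 23.8%, 16.4%, 17.9% and 20.6% of the same sets, and the GC box in 58.8%, 50.9%, 65.2% and 45%. For the cAMP response element the shares were 0.744%, 2.85%, 2.86% and 1.85%, for the CCAAT box 31.2%, 34.9%, 34.5% and 34.6%, and for the cell cycle homology region 12.8%, 13.3%, 10.6% and 15.2%. No test was made of these shares, and a match is no evidence of binding.

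Signalling genes moved in both directions. Of 31 tested Wnt genes 8 were called higher and 4 lower, against 4.82% and 3.49% over all genes. The ligand gene WNT8B rose from 1 read to 12.1 and 31.5 CPM. The R-spondins RSPO2 and RSPO3, which enhance Wnt signalling, rose from 1 and 2 reads to 8 and 20.7 CPM and 12.1 and 18.3 CPM. These genes met the count minimum only through other groups, so 8 of 31 cannot be read against 4.82%. WNT7A fell from 60.1 and 56.7 CPM to 8.24 and 2.12 CPM (-3.55 ± 0.48, adjusted p = 0.00078), and the antagonist SFRP1 from 833 and 669 CPM to 200 and 283 CPM (-1.63 ± 0.19, adjusted p = 0.000155). SFRP1 was at 403 and 294 CPM in dKO NPCs, where it was already called lower, and at 19.3 and 15.6 CPM in WT-D28 cells. AXIN2, a Wnt target, was not called at 19.6 and 29.8 against 28.9 and 62.3 CPM. Among 17 genes of FGF and ERK feedback, the receptor inhibitor IL17RD, the phosphatase DUSP6 and SPRY1 rose by 1.55 ± 0.32, 1.52 ± 0.23 and 1.05 ± 0.20, 10 stayed inside 2-fold and none fell. IL17RD and DUSP6 were already called higher in dKO NPCs, at 544 and 644 CPM and at 207 and 238 CPM, and neither differed by the call rule between dKO-D28 cells and dKO NPCs. In WT-D28 cells 7 of the 17 were called lower, against 11.5% over all genes. Of 14 tested Notch genes 1 was called, HEY1, a Notch target, which fell from 96.6 and 128 CPM to 40.5 and 41.1 CPM. It was also one of the 45 genes that set the 4 NPC libraries apart. Of 19 genes of the cAMP response 3 rose (CRH, FOSB and FOS) and 2 fell (SST and VGF).

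Mesenchymal and matrix genes, which dKO NPCs had gained, were mostly not raised in dKO-D28 cells. Of 19 mesenchymal genes 13 were called higher in dKO NPCs against WT NPCs and 3 in dKO-D28 cells, with 4 called lower. For 32 matrix genes the numbers higher were 14 and 4. Over all genes 2.59% were called higher in dKO NPCs, and 4.82% higher and 3.49% lower in dKO-D28 cells. TAGLN, the smooth muscle protein SM22, was at 120 and 297 CPM in WT NPCs, 636 and 862 CPM in dKO NPCs and 46.5 and 63.5 CPM in dKO-D28 cells (-1.97 ± 0.38, adjusted p = 0.016). ANKRD1, a target of YAP, fell from 101 and 192 CPM to 16.7 and 4.25 CPM, against 447 and 571 CPM in dKO NPCs, and COL8A1 from 27.4 and 29.8 CPM to 2.18 and 0.579 CPM. COL1A2, a chain of type I collagen, and the calcium-binding S100A11 were among those that rose, to 190 and 189 CPM from 32.6 and 68.6 CPM and to 70.3 and 166 CPM from 20.9 and 28.3 CPM. The 2 WT NPC samples differed in this list, with summed levels of 1671 and 2985 CPM.

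Further lists ranged from no call to calls in several members, against 4.82% higher and 3.49% lower over all genes. No gene of cholesterol synthesis was called among 23 tested at p below 0.05 and over 2-fold, but all 23 were lower in the second dKO-D28 sample than in the first, with summed levels of 4454 and 1971 CPM against 3624 and 3693 CPM in WT NPCs. HMGCS1, which makes HMG-CoA, was at 1077 and 272 CPM. Of 31 genes of glycolysis and hypoxia 4 rose and 19 stayed inside 2-fold, with LDHA, lactate dehydrogenase, rising from 52.2 and 76.0 CPM to 291 and 178 CPM (1.82 ± 0.23, adjusted p = 0.000208) while GAPDH was at 2299 and 2359 against 2942 and 2763 CPM. Of 23 p53 targets and apoptosis genes 1 rose (FAS) and 1 fell (BCL2), and 19 stayed inside 2-fold. IGF2, a fetal growth factor, rose from 102 and 114 CPM to 197 and 468 CPM (1.62 ± 0.39, adjusted p = 0.0419). Among 34 axon guidance genes 5 rose, led by SEMA3E, and 4 fell, with NTN1 going from 101 and 88.7 CPM to 25.9 and 25.9 CPM. Of 20 BMP and TGF-beta genes 4 rose and 3 fell, of 9 tested retina and pigment genes 4 rose, led by DCT and LHX9, of 11 interferon and antigen presentation genes 2 rose, IFITM1 among them, of 6 choroid plexus genes 1 rose (CLIC6) and 1 fell (HTR2C), of 18 fetal growth genes GRB10 was the 1 that fell, and of 4 oligodendrocyte genes 1 rose (CSPG4) and 1 fell. L1TD1 was the 1 pluripotency gene tested and rose from 3.92 and 7.45 CPM to 33.9 and 20.5 CPM. DPPA4, another pluripotency gene, was not tested, as its mean count of 19.8 lay just under the minimum. It went the other way, at 42.4 and 30.1 CPM in WT NPCs and 13.8 and 5.89 CPM in dKO-D28 cells. The 1 endothelial and immune gene tested was not called, and PECAM1 and PTPRC had at most 6 reads in any of the 4 libraries.

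Other genes of the largest changes followed the library split. The largest gains in CPM were all mitochondrial, with MT-CO1 at 3038 and 2956 CPM in WT NPCs and 7666 and 11760 CPM in dKO-D28 cells (1.70 ± 0.21). MT-CO1 was at 2836 and 3476 CPM in dKO NPCs and at 7149 CPM or more in the other 6 libraries, and the part of the library split in these rises was not tested. MT-ND4, MT-RNR2, MT-CO3 and MT-CO2 rose by 1.25 to 1.53. Of the 21 mitochondrial genes tested 15 were called higher, against 4.82% over all genes. With GC and length correction none of these 5 genes was called, and the log2 fold change of MT-ND4 was -0.29. Among the largest falls were the pseudogenes GTF2IP1, RPSAP18, RPL17P7 and EEF1A1P19, and among the largest rises RPL17P6, whose reads are shared with near-identical copies. GTF2IP1 was at 89.8 to 122 CPM in the 4 NPC libraries without a P4 mark and at 1.94 to 6.35 CPM in the other 8. Pseudogenes were 5.70% of the genes called higher, 11.7% of those called lower and 3.03% of those tested. Among the protein-coding genes of this split were HEY1 and ANKRD1 (above) and ESRRG, an orphan receptor, which fell from 74.4 and 58.9 CPM to 6.55 and 4.05 CPM and was at 33.0 and 15.6 CPM in dKO NPCs.

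The 2 dKO-D28 samples differed in identity genes too. NR2F2, a nuclear receptor of ventral and caudal forebrain, was at 17.7 CPM in the first and 109 CPM in the second, on both sides of the 69.2 and 54.4 CPM of WT NPCs. OTX1 was at 14.1 and 69.3 CPM, the G protein-coupled receptor GPRC5A at 17.9 and 89.0 CPM and the claudin CLDN1 at 24.7 and 109 CPM. The mitochondrial transfer RNA MT-TS1 was at 2.67 and 74.1 CPM and also differed widely within WT-D28 (113 and 313 CPM) and dKO NPCs (1.5 and 74.3 CPM). Higher in the first were FGFBP3, an FGF-binding protein, at 490 and 88.6 CPM, EGR3, an immediate early factor, at 60.4 and 6.56 CPM, the protease inhibitor A2M at 73.2 and 7.53 CPM, LINC02228 at 52.6 and 0.193 CPM, and the pseudogene ENSG00000279483 at 242 and 0.965 CPM. These differences have no replicate of their own and were not tested.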

How the data were processed

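RNA was extracted with Trizol, and libraries were made with the Illumina TruSeq RNA kit, which does not mark strand, so overlapping and antisense genes cannot be told apart. Per the labels and methods, the authors aligned reads to hg38 with HISAT2 2.0.4 and deposited raw read counts per gene made with SAMtools 1.3.1 and HTSeq 0.6.0. The annotation release is not given in the sources used here. Symbols, types and lengths came from GENCODE 44, which matched 98.7% of the 58302 gene identifiers. The study's minimum, a mean raw count of 20 across libraries, kept 13454 genes. Counts were scaled by TMM (factors 0.934 to 1.06) and fitted with edgeR 4.0.16 (quasi-likelihood, 6 groups, 12 samples, no covariate) in R 4.3.3. CPM values are TMM-scaled. Called means unadjusted p below 0.05 and fold change above 2. Adjusted p is Benjamini-Hochberg over 13454 genes. SE and the 95% intervals come from the same fit, 7 genes without reads in either group have none, and n is 2 per group throughout. Counting intervals and floors cover counting error only. The script was tested on simulated data. The contrast and gene lists were chosen with earlier results of these data known, so no list was tested. Cell cycle lists came from Seurat 5.3.0. Named genes were the targeted genes, fixed markers, the 8 largest rises and falls with adjusted p below 0.05 and at least 50 CPM, the 5 largest gains and losses in CPM, up to 3 rises, 3 falls and 2 unchanged members of each list, and the 5 genes most different each way between the dKO-D28 samples. Others (KRT8, KRT18, KRT19, CLDN4, CLDN6, AXIN2, HMGCS1, TFAP2A, TFAP2C, MSX1, TP63, DPPA4) were named after their values were seen. Replicate numbers were not taken as pairs, since same-numbered samples deviated together only weakly (correlation 0.0701, 2 pairs). Alternatives were DESeq2 1.42.0, other filters, 4 samples only, thinning, GC and length correction, a replicate block, and leaving out each sample. All value columns were used. Some genes that the rule names are not reported here.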

Additional observations from a re-analysis of the deposited data

Results flagged for a closer look

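Among the fixed markers and the 8 largest rises and 8 largest falls, 4 genes had a change from WT NPCs to dKO-D28 cells opposite to the change from WT NPCs to WT-D28 cells, with both changes called and below an adjusted p of 0.05, and edgeR's test of the difference between the day 28 groups was passed as well. For PAX7 the log2 fold changes were 5.11 in dKO-D28 and -5.93 in WT-D28 cells, and dKO-D28 was higher than WT-D28 by 11 (adjusted p = 4.15e-11). WT-D28 cells had no read of PAX7, so these fitted values against 0 are no bounds, and one WT NPC sample had no read either. For NKX2-1 the changes were -6.13 and 2.35 and the difference -8.47 (adjusted p = 5.04e-12). For DLX1 they were -3.63 and 2.41 with a difference of -6.04 (adjusted p = 5.52e-05), and for DLX2 -2.95 and 1.34 with a difference of -4.29 (adjusted p = 1.47e-08). In NKX2-1, DLX1 and DLX2 both WT-D28 samples lay above, and both dKO-D28 samples below, both WT NPC samples. Over all 13454 genes, 231 were called in opposite directions in the 2 contrasts and also called between the day 28 groups, so the 4 are examples of a larger set. With 2 samples a group, no sample could be tested as an outlier.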

How the results depend on the processing

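Against 649 genes called higher and 469 lower, 425 were higher with Benjamini-Hochberg adjustment, 1430 higher and 1306 lower when 1 count in any library sufficed, and 142 and 260 when every library had to hold 10, a filter that takes out genes without reads in 1 group. Against WT NPC P4, a reference chosen after seeing the data, 1409 were higher and 1288 lower. Leaving out 1 sample gave 601 to 794 higher and 421 to 803 lower, the 803 without the first dKO-D28 sample. Genes inside 2-fold numbered 6307 to 9112 over all alternatives. Without the 45 genes of the library split, also chosen after seeing the data, 632 were higher and 442 lower.

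The median of the neuronal cytoskeleton list was -1.36 without the first and -0.35 without the second dKO-D28 sample. The neural crest median was -0.309 with 10 counts required in every library, where the genes near 0 in WT NPCs drop out, and 1.69 (without the second dKO-D28 sample) to 5.3 (without the second WT NPC sample) on leaving out a sample. The epithelial median was 2.68 with that filter, 3.36 with GC and length correction, 3.39 with the replicate block besides, and 3.28 to 5.76 on leaving out those same samples. MT-ND4 was at -0.294 with GC and length correction and -0.302 with the replicate block added, and the cause was not tested. With the replicate block alone 647 genes were higher, 473 lower and 8811 inside 2-fold, and 132 of 134 named genes kept their direction and call. DESeq2 also left 132, and kept all 66 counts of list members called within 1.5 times. Leaving out a sample left 116 to 128. With 756942 reads in the smaller WT NPC library, genes under the floor of 1.4 CPM could not be told from absent.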
